A study of Mus musculus with 2 samples.

Results

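The IkB genes encode proteins that bind NF-kB dimers through a row of ankyrin repeats. The 6 described here, of 55536 annotated mouse genes, were chosen by symbol. They are 3 genes of nuclear IkB proteins, Nfkbiz (IkB zeta), Nfkbid (IkB NS) and Bcl3, and 3 genes of cytoplasmic IkB proteins, Nfkbia (IkB alpha), Nfkbie (IkB epsilon) and Nfkbib (IkB beta). The RNA came from primary bone marrow-derived macrophages of strain C57BL/6J stimulated for 25 min with 100 ng/ml of lipid A, a bacterial lipopolysaccharide component sensed by the receptor TLR4. RNA of a fraction called nucleoplasmic in one label and nuclear in another was depleted of ribosomal RNA and sequenced as total RNA, with 500 ng of RNA in replicate 1 and 1 µg in replicate 2. Both libraries form 1 group and carry the same donor entry, and sex and age were not collected. The SD given with n = 2 is therefore the spread between these libraries, which may be technical. No untreated cells, other times or cytoplasmic RNA are part of these 2 libraries, so the levels below are levels at 1 time and no induction was measured.

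In resting cells the cytoplasmic IkB proteins hold NF-kB out of the nucleus. TLR4 signals activate the IKK kinase, which marks IkB alpha, beta and epsilon for ubiquitination and destruction, and the freed NF-kB then switches on several IkB genes, Nfkbia among the fastest, so that new inhibitor ends the response. The nuclear IkB proteins act on NF-kB already bound to DNA. IkB zeta, little made in resting macrophages, helps a set of secondary genes to be transcribed, and Bcl3 and IkB NS bind the p50 and p52 subunits.

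Depth was 13506939 estimated counts in replicate 1 and 17932332 in replicate 2, of which the 6 genes took 0.249% and 0.367%. Of the macrophage markers, 10 of 10 had a TPM (a level per transcript length, scaled to the same total in every library) of at least 1 in both libraries, with a summed level of 4329 and 3573 TPM. Of all protein-coding genes, 44.5% reached that TPM of 1 in both libraries. Of the markers of other cells, 2 of 6 neutrophil genes reached that level, and 0 of 3 B cell, 0 of 3 T cell, 0 of 4 dendritic cell, 0 of 3 mast cell, 0 of 3 fibroblast and 0 of 4 erythroid and megakaryocyte genes did in the aligned gene table. The summed level of each of these other lists was at most 3.71 TPM there, and Ly6g, Cd3e, Fcer1a and Hbb-bs were at 0 counts in both libraries. In the alignment-free table described below, the T cell gene Cd3d had 8.72 and 1.10 TPM. The nuclear RNA genes Malat1, Neat1 and Xist were all detected. Mitochondrial genes took 4.68% and 5.06% of counts, so RNA from outside the nucleus was present in both libraries. In such bulk libraries a lower level in a few cells and a lower level in every cell cannot be told apart.

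The start regions of these genes are shown because kB motifs, the DNA sites of NF-kB, are the best known feature of IkB promoters, and because Nfkbid has several starts on which the tables below disagree. RefSeq windows of GRCm38.p6 (the assembly of mm10), 250 bases before to 50 after a start, were found for 5 of the 6 genes and gave 7 windows. Both strands were searched for the kB motif, taken as GGGRNWYYCC (R is A or G, N any base, W A or T, Y C or T). Looser forms of the motif were not searched for. Because the ends of the motif are near-palindromic, both strands can match at the same bases. A match was present in 4 of the 7 windows, beside 4.51% of all 32851 windows. Those with a match belong to 4 of the 5 genes, a count for which no share over all genes was computed. The 250 bases before the start are printed below for 4 of the 7 windows, 5′ to 3′ on the gene's strand, with matches in capitals.

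Nfkbid, second start (chr7:30422156-30422405, + strand): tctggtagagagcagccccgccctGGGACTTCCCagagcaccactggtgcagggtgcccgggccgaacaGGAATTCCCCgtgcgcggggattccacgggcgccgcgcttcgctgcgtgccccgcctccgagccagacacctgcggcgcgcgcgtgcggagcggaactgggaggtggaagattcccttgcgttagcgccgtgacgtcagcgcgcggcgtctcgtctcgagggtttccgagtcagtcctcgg
Nfkbid, first start (chr7:30421481-30421730, + strand): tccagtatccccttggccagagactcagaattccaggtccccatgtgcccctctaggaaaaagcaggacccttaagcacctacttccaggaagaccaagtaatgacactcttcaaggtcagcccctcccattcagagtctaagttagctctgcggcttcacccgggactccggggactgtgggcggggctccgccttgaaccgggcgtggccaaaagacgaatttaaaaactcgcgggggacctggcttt
Nfkbia (chr12:55492648-55492897, − strand): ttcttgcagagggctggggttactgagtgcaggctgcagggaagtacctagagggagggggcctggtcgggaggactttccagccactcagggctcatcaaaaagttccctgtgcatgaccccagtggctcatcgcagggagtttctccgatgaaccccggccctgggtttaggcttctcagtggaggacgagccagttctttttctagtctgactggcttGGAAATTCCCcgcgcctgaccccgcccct
Nfkbib (chr7:28766645-28766894, − strand): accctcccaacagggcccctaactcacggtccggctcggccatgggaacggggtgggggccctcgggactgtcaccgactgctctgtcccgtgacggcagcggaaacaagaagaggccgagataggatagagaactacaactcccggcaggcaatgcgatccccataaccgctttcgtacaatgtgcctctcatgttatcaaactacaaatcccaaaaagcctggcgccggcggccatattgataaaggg

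Counted from 0 at the start, the second Nfkbid start had matches at -226 to -217 (GGGACTTCCC) and at -181 to -172 (GGAATTCCCC). Nfkbia had 1 match close to its start, at -29 to -20 (GGAAATTCCC). Of the windows not printed, Nfkbie had a match at -106 to -97 (GGGGGATTCC), and Bcl3 had one inside the transcribed part, at 2 to 11 (GGGAAGTCCC). The first and the third Nfkbid start and the Nfkbib start had none. A match is a run of letters and not a measured binding site.

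All 6 genes were present in the fraction, at or above 1 TPM in both libraries, as were 44.5% of the 22028 protein-coding genes. They were also at or above 5 TPM, a level for which the share of all genes was not computed. The median of log2(TPM + 1) over the 6 genes was 6.59 ± 0.17 (SD, n = 2), against 0.67 ± 0.22 over all protein-coding genes. Among the nuclear members, Nfkbiz (ENSMUSG00000035356.17, chr16:55811375-55838899, − strand) had 435 TPM in replicate 1 and 463 TPM in replicate 2, from 19535 and 33828 counts. It ranked 62 and 54 among protein-coding genes. Nfkbid (ENSMUSG00000036931.15, chr7:30421732-30428746, + strand) had 153 and 154 TPM from 3331 and 5623 counts, at ranks 269 and 200. Bcl3 (ENSMUSG00000053175.17, chr7:19808462-19822770, − strand) was much lower, with 34.0 and 36.4 TPM from 414 and 869 counts. The 3 nuclear genes thus lay over a wide span, and in this aligned table each was close to the same TPM in both libraries. Their means were 449 ± 19.3, 154 ± 0.884 and 35.2 ± 1.65 TPM (SD, n = 2) in the order Nfkbiz, Nfkbid, Bcl3. The median gene there had higher TPM in replicate 1, by 0.42 log2 units, so relative to it each nuclear gene was lower in replicate 1. In the alignment-free table all 3 had higher TPM in replicate 1, as did the median gene.

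The cytoplasmic members spanned a similar range and all had lower TPM in replicate 1 of the aligned table, whose values follow. In the alignment-free table they had higher TPM in replicate 1, but so did the median gene there, by 1.19 log2 units. Relative to that median they were still lower in replicate 1. Nfkbia (ENSMUSG00000021025.8, chr12:55489410-55492647, − strand), the feedback inhibitor, had 465 TPM in replicate 1 and 654 TPM in replicate 2, from 8166 and 20299 counts. It was at ranks 57 and 29 among protein-coding genes and had the highest mean level of the 6, 559 ± 134 TPM (SD, n = 2). Nfkbie (ENSMUSG00000023947.8, chr17:45555703-45563169, + strand) had 49.8 and 69.0 TPM from 1801 and 4233 counts. Nfkbib (ENSMUSG00000030595.15, chr7:28758251-28767512, − strand), whose transcription is known to depend little on NF-kB, had 24.8 and 37.8 TPM from 394 and 1015 counts. In replicate 1 it was the lowest of the 6, and in replicate 2 it stood just above Bcl3.

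**Figure D1:**
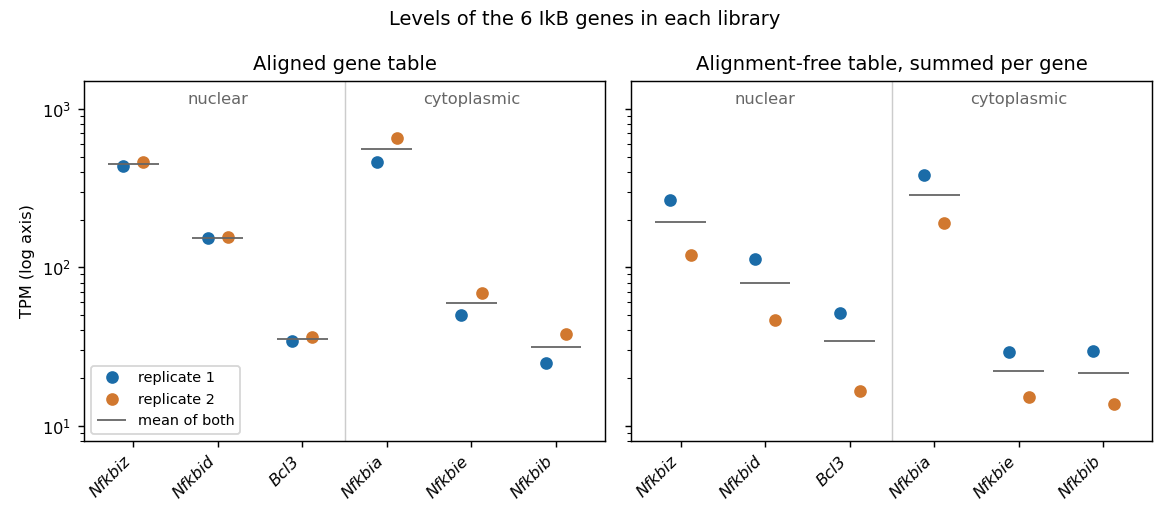
TPM of each IkB gene (log axis) in replicate 1 and replicate 2, with a line at the mean of both, in the aligned gene table (left) and in the alignment-free table summed per gene (right); nuclear genes stand left of cytoplasmic genes. Nfkbia and Nfkbiz are the highest in both tables. All 6 genes are lower in replicate 2 of the alignment-free table, as is the median gene there.

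From high to low mean TPM the order was Nfkbia, Nfkbiz, Nfkbid, Nfkbie, Bcl3 and Nfkbib. Neighbours were compared within each library, and a gap was read as larger than the spread where both libraries gave the same sign and the mean of the log2 ratios exceeded their SD. Nfkbia exceeded Nfkbiz by 0.09 and 0.50 log2 units, a mean of 0.30 ± 0.29 (SD, n = 2) that is only just above the spread. Nfkbiz exceeded Nfkbid by 1.51 and 1.58, Nfkbid exceeded Nfkbie by 1.62 and 1.16, and Nfkbie exceeded Bcl3 by 0.55 and 0.92. Bcl3 and Nfkbib did not differ beyond their spread, with a ratio of 0.46 in replicate 1 and -0.06 in replicate 2.

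The authors' second set of values, made from the reads without an alignment and called alignment-free here, kept the top of that order. Nfkbiz had 264 and 119 TPM there, Nfkbid 113 and 46.4, and Bcl3 51.5 and 16.5. Nfkbia had 381 and 189 TPM, Nfkbie 29.0 and 15.0, and Nfkbib 29.5 and 13.7. Nfkbia again exceeded Nfkbiz, by 0.53 and 0.67 log2 units. The place of Bcl3 was the exception, since the log2 ratio of Nfkbie over Bcl3 was -0.83 and -0.14 there, with a mean within the spread of that ratio. Bcl3 exceeded Nfkbib there by 0.81 and 0.27, a mean of 0.54 ± 0.38 (SD, n = 2) that is larger than the spread, unlike in the aligned table. Values of these 2 tables are not on one scale, so levels are compared within a table.

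**Figure D2:**
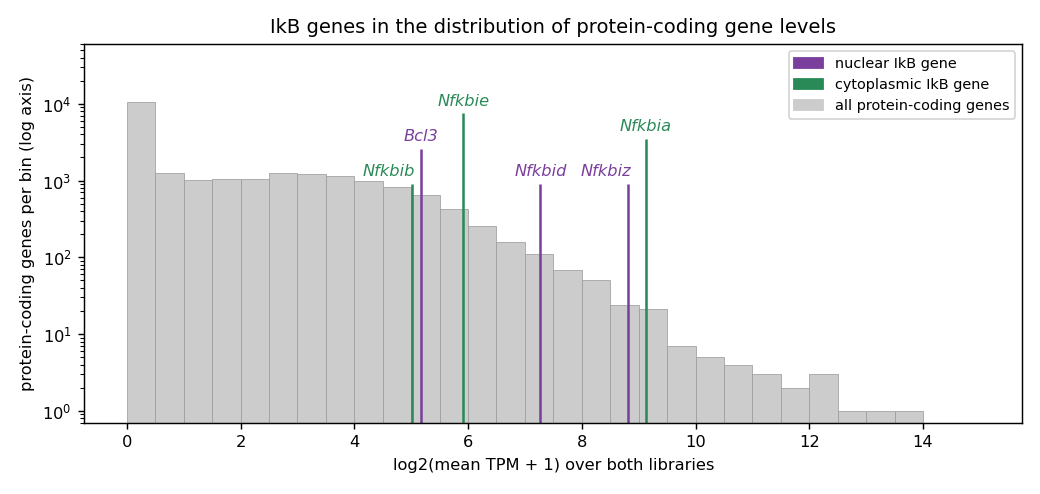
Number of protein-coding genes (log axis) by level, log2(mean TPM + 1) over both libraries of the aligned gene table, in grey bins, with a line at the level of each nuclear (purple) and cytoplasmic (green) IkB gene; line heights only separate the names. Bcl3, Nfkbib and Nfkbie lie between 31.3 and 59.4 TPM, Nfkbid at 154 TPM, and Nfkbiz and Nfkbia at 449 and 559 TPM.

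Summed within each library, the nuclear genes had 622 TPM in replicate 1 against 539 TPM for the cytoplasmic genes. In replicate 2 the nuclear genes had 653 TPM against 761 TPM for the cytoplasmic genes. The log2 ratio of nuclear to cytoplasmic sums was 0.21 and -0.22, so its sign turned between the libraries and its mean, -0.0064 ± 0.30 (SD, n = 2), was no difference beyond the spread. Nfkbiz made up 37.5% and 32.7% of the 6-gene sum and Nfkbia 40.0% and 46.2%, so these 2 genes carried most of it in both libraries. Counted as reads and not per length, the nuclear genes were higher, with 1724 and 2248 CPM (counts scaled to the library total) against 767 and 1425 CPM for the cytoplasmic genes, a mean log2 ratio of 0.91 ± 0.36. Nfkbiz has the longest transcripts of the 6, with an effective length of 3281 and 3187 bases, beside 1284 and 1353 bases for Nfkbia.

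The 6 genes have 24 annotated transcripts, and the tables give the share of each gene's TPM in every one. The same transcript led in both libraries of both transcript tables for 4 of the 6 genes, where 48.0% of 9151 protein-coding genes with 2 or more transcripts did so. These were Nfkbiz-204, Nfkbia-201, Nfkbie-202 and Nfkbib-202. Nfkbid and Bcl3 had one leading transcript in the aligned table and another in the alignment-free table.

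Most Nfkbiz signal was assigned to an inner start. Nfkbiz-204, which begins at 55822138 inside the gene and codes for 728 residues, took 94.2% and 87.0% of the gene's TPM in replicates 1 and 2, and 87.3% and 77.5% of alignment-free TPM. The 4 transcripts that begin at the upstream start, 55838899 or just inside it, held 408 and 2015 counts. That was 2.09% (95% Wilson interval 1.90% to 2.30%) and 5.96% (5.71% to 6.21%) of the gene's counts, so the upstream share was lower in replicate 1. Most of it was Nfkbiz-205, a noncoding transcript of 3 exons that ends before the inner start, with 5.83% and 11.6% of TPM. Only 23 exonic bases are found in Nfkbiz-204 and in no other transcript of the gene. None are unique to Nfkbiz-201, which codes for a protein of the same length from the upstream start. Those 23 bases and the 880 unique to Nfkbiz-205 lie in an intron of Nfkbiz-201. Unspliced RNA from the upstream start covers them too, so these bases cannot tell it apart from Nfkbiz-204 or Nfkbiz-205.

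For Nfkbid the aligned and the alignment-free table chose different first exons. In the aligned table Nfkbid-203, which begins at the first start and codes for 470 residues, led with 66.0% and 66.2% of TPM. Nfkbid-201, from the third start and coding for 327 residues, had 19.8% and 17.2%. Nfkbid-202, from the second start and also coding for 327 residues, had 0 counts in replicate 1 and 13.7 in replicate 2. In the alignment-free table Nfkbid-202 led with 39.1% and 36.1%, against 24.1% and 33.3% for Nfkbid-203. The second start is the one with 2 kB matches in the sequences printed above, and the first and the third had none. The 3 transcripts share their exons from exon 3 of Nfkbid-203 onward. The bases found in 1 transcript alone number 103 in Nfkbid-203, 90 in Nfkbid-202 and 128 in Nfkbid-201. Those 90 and 128 bases lie in the first intron of Nfkbid-203, and the 128 also in the first intron of Nfkbid-202. Unspliced RNA from an earlier start covers them too and cannot be told apart there. The tables thus differ on which start was assigned most of the RNA, and so on which protein it would code for. The fourth transcript, Nfkbid-204, is annotated as retaining an intron and had 14.2% and 16.4% of TPM.

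Bcl3 was split between more transcripts than any other member. The full coding transcript Bcl3-201, of 448 residues, led in the aligned table with 38.5% and 47.4% of TPM. Bcl3-202 and Bcl3-206, both annotated as retaining intron sequence, had 26.7% and 24.0%, and 21.8% and 12.8%. The short coding transcript Bcl3-203 had 13.1% and 15.0%. By alignment-free TPM the noncoding Bcl3-204 led with 37.8% and 30.0% while it had 0 and 1.81 counts in the aligned table. Per count and not per TPM, Bcl3-201 held 70.7% and 75.9% of the gene, since the other transcripts are short. The antisense gene Gm16175 overlaps 161 exonic bases of Bcl3 and had 0 and 1 counts.

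**Figure D3:**
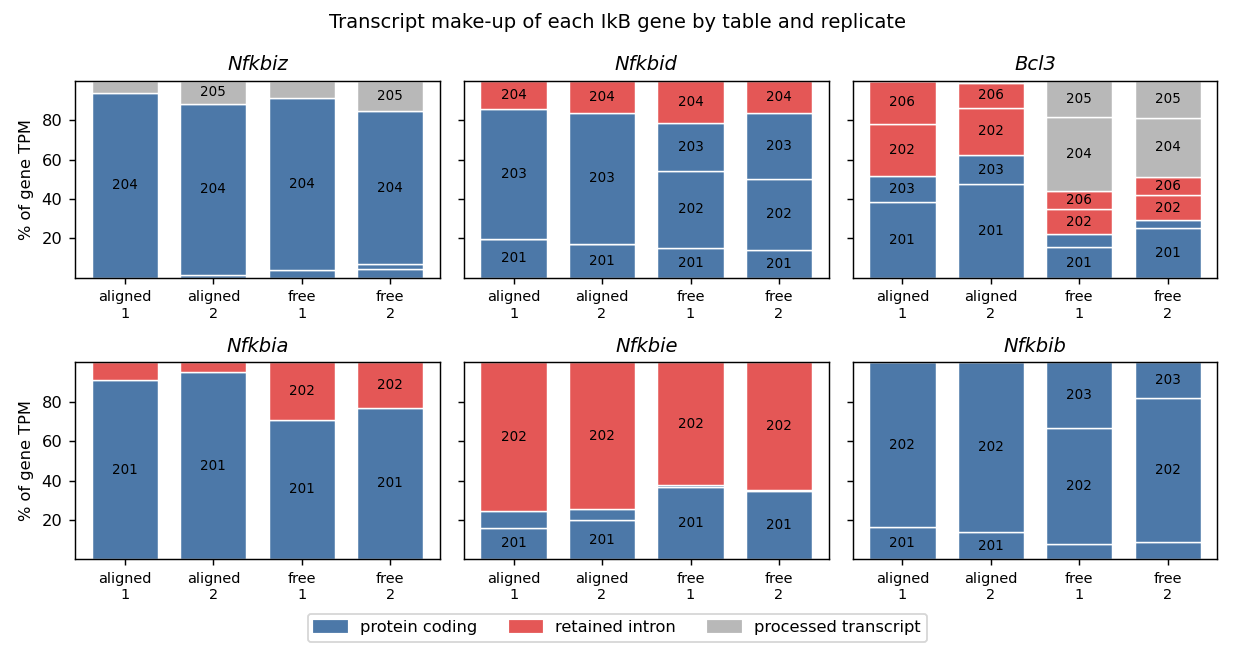
Stacked percent of each IkB gene's TPM in its annotated transcripts, for replicates 1 and 2 of the aligned table and of the alignment-free table ("free"), with transcript numbers on segments of at least 9% and colours for the annotated type. Nfkbie is mostly retained intron in all 4 columns, and the columns of Nfkbid and Bcl3 change between the tables.

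The cytoplasmic genes were simpler, apart from Nfkbie. Nfkbia-201, which codes for the 314 residues of IkB alpha, took 91.1% and 95.3% of TPM. Its other transcript, Nfkbia-202, is annotated as retaining intron sequence and took 8.95% and 4.72%, or 29.1% and 22.9% in the alignment-free table. Nfkbib-202 took 83.6% and 86.4% and Nfkbib-201 16.4% and 13.6%. Both code for 359 residues, and 884 exonic bases, at both ends of the transcript, belong to Nfkbib-201 alone. At the 3′ end 314 exonic bases of Nfkbib overlap Ccer2 on the opposite strand, and 42 at the other end overlap Sirt2, so reads there are uncertain because strand use is not stated. Nfkbib-203 had 0 counts in the aligned table but 33.1% and 17.8% of TPM in the alignment-free table. The only bases found in Nfkbib-203 alone are the 42 that overlap Sirt2.

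Most Nfkbie signal was assigned to a transcript that keeps an intron and has no annotated coding sequence. Nfkbie-202 took 75.7% and 74.6% of the gene's TPM, and 62.3% and 64.6% in the alignment-free table. In counts this was 79.9% (95% Wilson interval 77.9% to 81.6%) in replicate 1 and 78.7% (77.5% to 79.9%) in replicate 2, a mean of 79.3% ± 0.803 (SD, n = 2). The coding transcripts Nfkbie-201 and Nfkbie-203, of 364 and 371 residues, took 16.1% and 19.8%, and 8.23% and 5.67%. They are hard to part, with 243 and 705 counts for Nfkbie-201 and a posterior SD given by the authors of 73.4 and 104 counts. Nfkbie-202 keeps the whole of intron 2, 610 bases at chr17:45558598-45559207, and these 610 bases are the only exonic ones that no other Nfkbie transcript has. Its ends carry the usual GT and AG, as the bases at both sites show (intron in capitals, 20 exon bases on the outer side in lower case, GENCODE M21, + strand).

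Nfkbie intron 2, 5′ site (chr17:45558578-45558637): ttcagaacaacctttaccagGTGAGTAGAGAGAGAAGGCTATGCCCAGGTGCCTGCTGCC
Nfkbie intron 2, 3′ site (chr17:45559168-45559227): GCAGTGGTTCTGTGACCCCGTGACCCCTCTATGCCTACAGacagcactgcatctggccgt

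The other intron kept whole is intron 7 of Nfkbid, 114 bases in Nfkbid-204, shown as the only other one, with 20 exon bases on each side in lower case.

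Nfkbid intron 7 (chr7:30425836-30425989, + strand): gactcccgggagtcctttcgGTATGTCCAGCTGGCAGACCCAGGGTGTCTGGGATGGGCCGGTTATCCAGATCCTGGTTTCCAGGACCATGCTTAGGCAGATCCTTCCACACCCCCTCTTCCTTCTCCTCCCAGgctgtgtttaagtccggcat

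The remaining transcripts of this type keep only part of an intron: Bcl3-202 holds 320 of the 7533 bases of intron 2, Bcl3-206 holds 190 of the 705 bases of intron 3, and Nfkbia-202 holds 32 of the 521 bases of intron 1. In each of the 5 transcripts the bases unique to it are exactly the intron bases it keeps. RNA that has not yet been spliced covers the same bases, and in these tables the 2 sources cannot be told apart.

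**Figure D4:**
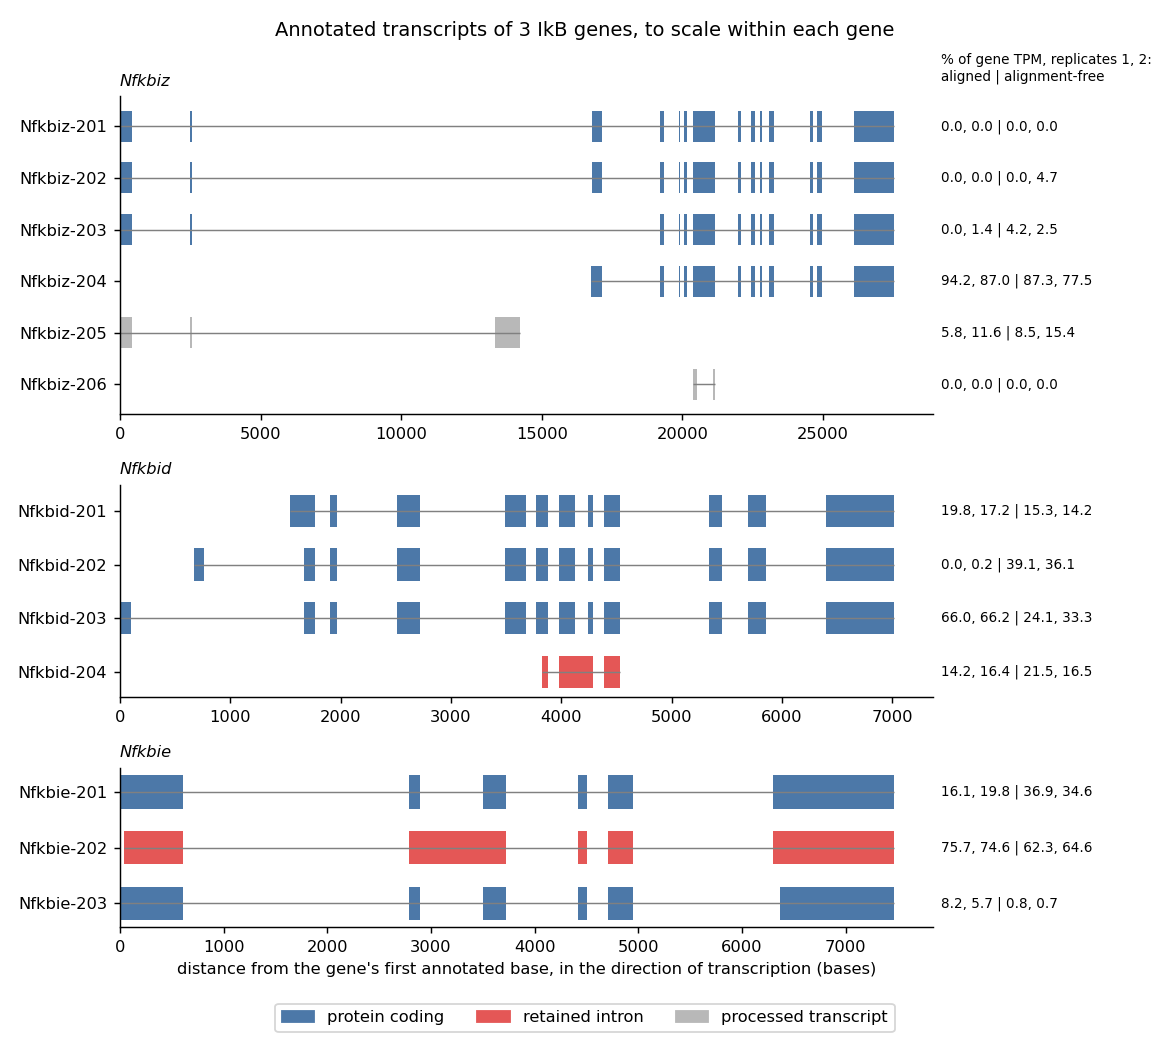
Annotated exons (boxes) and introns (lines) of every transcript of Nfkbiz, Nfkbid and Nfkbie, by distance in bases from the gene's first annotated base in the direction of transcription, coloured by type, with the percent of the gene's TPM in replicates 1 and 2 of the aligned and of the alignment-free table at the right. Nfkbiz-204 begins at an inner start, the 3 coding Nfkbid transcripts differ in their first exons, and Nfkbie-202 joins 2 exons through intron 2.

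Over all 6 genes, retained-intron transcripts took 5.62% (95% Wilson interval 5.38% to 5.87%) of counts in replicate 1 and 6.11% (5.93% to 6.30%) in replicate 2. Nfkbie carried most of this: without it, an alternative chosen after seeing the data, the mean share was 1.27%. The nuclear genes had 0.755% and 0.808%, against 16.6% and 14.5% for the cytoplasmic genes. Nfkbiz, with no transcript of this type in the annotation, makes up most of the nuclear counts and can add nothing to that share. Over the members that have such a transcript, an alternative chosen after seeing the data, the share was 4.70% and 5.02% for Nfkbid and Bcl3, against 17.2% and 15.1% for Nfkbia and Nfkbie. By gene the count share was 2.62% and 3.37% for Nfkbid, 21.4% and 15.7% for Bcl3 and 3.38% and 1.81% for Nfkbia. Nfkbib likewise has none annotated, and a share of 0 for Nfkbiz and Nfkbib says nothing of their introns. Of the 4 genes that have one, 1, Nfkbie, had over 50% of its counts there in both libraries, and 11.9% of 6881 protein-coding genes with such a transcript did. The median share over those 6881 genes was 17.4%, close to that of Bcl3 and above those of Nfkbid and Nfkbia.

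Between the libraries, all 6 genes stood lower in replicate 1 relative to other genes in the aligned table, while Nfkbid and Bcl3 did not in the alignment-free table. The measure is log2 of TPM + 1 in replicate 1 over replicate 2, minus its median of 0.42 over the 14584 genes with 10 or more counts in each library. It was -0.51 for Nfkbiz, -0.43 for Nfkbid and -0.52 for Bcl3, against -0.91 for Nfkbia, -0.89 for Nfkbie and -1.01 for Nfkbib. In the aligned table each cytoplasmic gene was thus further from the median than each nuclear gene, which did not hold for Bcl3 in the alignment-free table. Of the 6, 1 gene, Nfkbib, was over 2-fold apart, where 1.71% of the genes were. With 1 library on each side this has no test. With TMM scaling of the counts the values lay between -0.60 and -1.20 and 3 genes, the cytoplasmic ones, were over 2-fold apart, where 4.89% of the genes were. DESeq2 size factors and a pseudocount of 0.1 TPM also gave 3 of the 6, where 4.95% and 4.70% of the genes were over 2-fold apart. Without subtracting the median it was 0 of the 6 beside 3.91%, and without a count minimum 0 of the 6 beside 2.84%. In the alignment-free table the values were -0.04, 0.08 and 0.40 for Nfkbiz, Nfkbid and Bcl3 and -0.18, -0.29 and -0.14 for Nfkbia, Nfkbie and Nfkbib, so there none of the 6 was over 2-fold apart, where 5.72% of the genes were. The amount of starting RNA also differed between the replicates, and its part in these values was not tested.

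**Figure D5:**
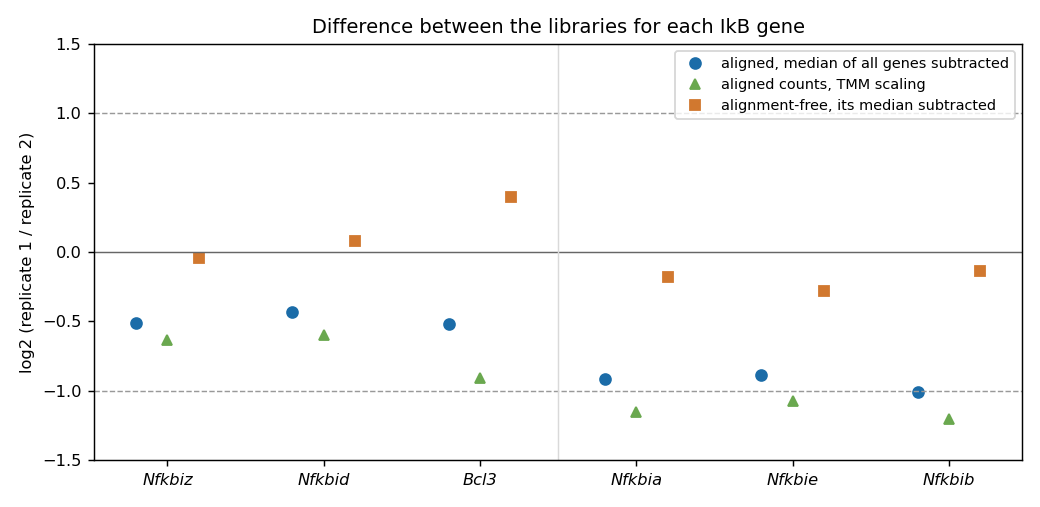
Log2 ratio of replicate 1 over replicate 2 for each IkB gene, nuclear genes left of cytoplasmic genes, from TPM + 1 of the aligned table minus the median of all genes (circles), from its counts with TMM scaling (triangles) and from alignment-free TPM minus the median there (squares), with dashed lines at 2-fold. Circles and triangles are below 0 for all 6 genes and the squares lie between -0.29 and 0.40.

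The proteins that act with these inhibitors were described from lists of pathway genes, by the same measure of TPM of at least 1 in both libraries. Of all protein-coding genes, 44.5% were detected by this measure. Against the median log2(TPM + 1) of 6.59 ± 0.17 for the IkB genes, the NF-kB subunit genes, all 5 of them detected, had 5.07 ± 0.24 (SD, n = 2). In the aligned table Rel had 54.8 and 55.9 TPM, nearly the same TPM in both libraries, as the nuclear IkB genes had there. Nfkb1, which encodes the precursor of p50, had 48.1 and 35.2 TPM, and Nfkb2, the precursor gene of p52, had 28.8 and 39.5 TPM. Rela, the main activating subunit that IkB alpha binds, had 27.3 and 36.8 TPM, and Relb had 17.3 and 25.5 TPM. In the aligned table Nfkbia thus stood above every subunit gene in both libraries, as did Nfkbiz and Nfkbid. Bcl3 and Nfkbib lay within the range of the subunits there, and Nfkbie did so in replicate 1 alone. On the ratio between libraries minus the median, Nfkb1 was at 0.02 and the other subunits were between -0.45 and -0.96, in the range of the IkB genes. By alignment-free TPM, Rela was the highest subunit gene in both libraries, with 57.2 and 15.5 TPM. Bcl3, with 51.5 and 16.5 TPM there, stood above it in replicate 2, and Nfkbie lay within the subunit range in both libraries.

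All 3 genes of the IKK complex, the kinase that marks the cytoplasmic IkB proteins, were detected (median 5.58 ± 0.29), with the catalytic subunit gene Ikbkb highest at 51.8 ± 8.25 TPM and the scaffold gene Ikbkg lowest at 12.7 ± 3.01 (SD, n = 2). All 5 genes of the ubiquitin ligase that then recognises them were detected (3.74 ± 0.38), with the scaffold gene Cul1 at 20.8 ± 5.93 TPM and the adaptor gene Skp1a at 6.44 ± 0.580. The 8 genes of adaptors and kinases upstream of IKK were all detected (4.02 ± 0.39), between Tab2 at 37.8 ± 12.2 TPM and Tab3 at 3.56 ± 0.962, both encoding partners of the kinase TAK1. Beside these counts, 44.5% of all protein-coding genes were detected.

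The highest genes of other brakes on the pathway stood near the level of Nfkbia and Nfkbiz. Of 5 genes of proteins that restrain NF-kB signalling, mostly by editing or binding ubiquitin chains, all were detected (4.65 ± 0.56), where 44.5% of protein-coding genes were. Tnfaip3, which encodes the ubiquitin-editing enzyme A20, had 466 TPM in replicate 1 and 494 TPM in replicate 2, and the lowest, N4bp1, had 18.3 ± 1.66 TPM. Of 4 genes of factors that destabilise inflammatory mRNAs all were detected (5.20 ± 0.27), with Zfp36, which encodes tristetraprolin, at 519 ± 10.8 TPM and Rc3h1, which encodes Roquin-1, at 15.2 ± 5.06.

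Genes known from mouse knockouts to need IkB zeta were low, near the median protein-coding gene, while Nfkbiz RNA was abundant. Of Il6, Il12b and Lcn2, 0 of 3 were detected in both libraries, where 44.5% of protein-coding genes were. Their median was 0.85 ± 0.034 on the log2(TPM + 1) scale, beside 0.67 ± 0.22 over all protein-coding genes. Il6 had 1.21 and 0.770 TPM. Il12b, which encodes the p40 subunit of interleukin-12, was the highest with 0.830 and 1.67 TPM from 19 and 65 counts, and Lcn2, which encodes the iron-binding protein lipocalin-2, was the lowest with 0.510 and 0.390 TPM from 7 and 6 counts. With 1 time point, whether these genes came on later was not measured. Of 2 other genes that encode ankyrin repeat proteins and are not members, Nfkbil1 had 6.58 ± 0.410 TPM and Ankrd42 0.965 ± 0.629, so 1 of 2 was detected in both libraries.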

How the data were processed

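Total RNA-seq of 2 libraries of 1 group was used as deposited. Per the labels and the deposited readme, the authors made expected counts and TPM per gene and per transcript from an alignment to the transcriptome, with assembly mm10 and GENCODE annotation M21. A second transcript table holds the authors' estimated counts and TPM made from the reads with no alignment between, called alignment-free here and summed per gene. The percent of its gene's TPM that a transcript holds and the posterior SD of its count, a score of the uncertainty in splitting reads, are the authors' deposited columns. The quantifiers and whether counting used strand were not given in the sources used here. Replicates were not pooled.

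The 6 members were found by symbol in the alignment-free table and joined by gene identifier. The members and the gene lists were chosen with earlier results of these data known. Named were all members, each member transcript with at least 5% of its gene's TPM in either library, the 5 NF-kB subunits, and the highest and lowest gene of each other list. Transcripts of Nfkbid, Bcl3 and Nfkbib outside this rule, some markers at 0 and neighbouring genes were named after their values were seen. Log ratios between libraries used TPM + 1 and a minimum of 10 counts in both. TMM factors came from edgeR 4.0.16 and size factors from DESeq2 1.42.0, on expected counts rounded to whole numbers, in R 4.3.3. Other steps ran in Python 3.11.15 with pandas 2.3.3. With 1 group, no test between groups was made and no p-value computed. Intervals are 95% Wilson intervals and cover only the error of counting, not the uncertainty in splitting reads between transcripts. There were no molecular identifiers to tell molecules from copies, so copies count as separate reads and the intervals may be too narrow. A count of 0 allows up to 3 counts, or 0.222 and 0.167 CPM in replicates 1 and 2. Depth was 13506939 and 17932332 counts in the gene tables and 25372491 and 26328920 in the alignment-free tables. TPM was taken over all rows, so short RNAs take part of each total. Genes under 200 bases held 24.7% and 25.0% of TPM.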

Additional observations from a re-analysis of the deposited data

How the results depend on the processing

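All 6 genes stayed detected in the alignment-free table and at 5 TPM, settings for which the share of all genes was not computed. The log2 ratio of nuclear to cytoplasmic sums (-0.0064) ranged from -0.22 to 0.21 when 1 library was left out, was -0.15 in the alignment-free table and 0.91 in CPM, and was 0.42 as a mean of log2(TPM + 1) and 0.43 as a mean of log2(TPM + 0.1), which weight the 3 genes of a class equally. The count of genes over 2-fold apart between libraries (1) was 0 in the alignment-free table, 0 without subtracting the median, 0 without a count minimum, 3 with TMM, 3 with DESeq2 size factors and 3 with a pseudocount of 0.1 TPM, while the share of all genes over 2-fold apart, 1.71% as reported, was 4.89%, 4.95% and 4.70% in the last 3. The retained-intron share (5.87%) was 5.62% to 6.11% with 1 library, 7.36% in the alignment-free table, 7.60% over all transcripts not typed as coding, 17.2% as the mean of the genes' own shares, 13.4% over members with such a transcript and 1.27% without Nfkbie, the last 2 chosen after seeing the data. The Nfkbia share of the sum (43.1%) was 40.0% to 46.2% with 1 library, 45.6% in the alignment-free table and 27.5% in CPM, which does not divide by length. The summed level (1288 TPM) was 1162 to 1414 TPM with 1 library, 634 in the alignment-free table and 1853 when mitochondrial genes and genes under 200 bases were left out of the total. No paired analysis was possible because both libraries belong to 1 group. Bcl3 and Nfkbib had the fewest counts of the 6, 414 and 394 in replicate 1, which limits their transcript shares.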

Other observations

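Genes that overlap the members or lie within 2000 bases of them were read because, without a stated use of strand, reads of overlapping genes cannot be told apart. Nfkbib overlaps a gene on the opposite strand at each end. Sirt2, which encodes a deacetylase, shares 42 exonic bases with it and had 953 counts in replicate 1 and 1158 in replicate 2, and Ccer2 shares 314 exonic bases and had 26.1 and 42.0 counts. The exonic bases shared with Ccer2 lie at the 3′ end, where Nfkbib-201 and not Nfkbib-202 extends. Bcl3 has 2 antisense genes inside it. Gm16175 shares 161 exonic bases and had 0 and 1 counts, and Gm16174 lies within an intron and had 8 and 49 counts, or 3.11 and 9.74 TPM.

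Only Nfkbiz, Nfkbid and Nfkbie had a gene within 2000 bases that does not overlap them. Each such gene was lower than its IkB neighbour in both libraries. How often this holds for other genes of like level was not computed. Nfkbiz had 449 ± 19.3 TPM, against 0.325 ± 0.0495 TPM for Nxpe3, 1054 bases upstream on the same strand (SD, n = 2). Nfkbid had 154 ± 0.884 TPM, against 1.82 ± 1.11 TPM for Hcst, 1878 bases away on the opposite strand. Nfkbie had 49.8 and 69.0 TPM, against 41.7 and 48.0 TPM for Slc35b2, which encodes a transporter of the sulfate donor PAPS, 705 bases downstream on the same strand.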
